A study of Arabidopsis thaliana with 6 samples.

Results

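IRX10, IRX15 and IRX15L are 3 Arabidopsis thaliana genes of xylan synthesis, and their levels were followed in callus and in 5 liquid cultures. They were taken by locus, AT1G27440 for IRX10 (RefSeq symbol GUT2), AT3G50220 for IRX15 and AT5G67210 for IRX15L (RefSeq symbol IRX15-L), and they are 3 of 13286 genes that could be paired with a probe set of their own. The platform annotation pairs each of them with 1 probe set, 264493_at, 252211_at and 247030_at in the same order, and all 3 are accounted for below. The loci were chosen without a threshold on their levels, but with earlier results of these data known.

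Xylan is a polymer with a backbone of xylose and is the main hemicellulose of the thickened secondary walls of xylem vessels and fibres, where it coats cellulose. Its chains are built in the Golgi apparatus from UDP-xylose by a complex of glycosyltransferases, and side chains and acetyl groups are added to them there. Mutants in several of these genes have vessels that collapse inwards, which gave the name irregular xylem, shortened to IRX.

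The series holds 6 arrays from ecotype Ler, with 1 array for each of 6 conditions, and names trans-differentiation of cultured cells as its subject. High differentiating medium (0.2% sucrose, 4% mannitol, 0.2 mg/l of the auxins 2,4-D, NAA and IAA, and 1 mg/l of the cytokinin BA) was sampled at days 2, 5 and 9. Low differentiating medium had the sucrose and mannitol unchanged, its hormones being 2,4-D at 0.5 mg/l and kinetin at 1.5 µg/l. It was sampled at days 5 and 9, and both were liquid media at 22 °C shaken at 105 rpm. The starting point was callus that had not been moved to liquid, sampled at day 0. All 6 samples came from leaves of seedlings aged 14 to 17 days, kept for 2 weeks in darkness on callus induction medium with 2.0% glucose, 0.5 mg/l 2,4-D and 0.05 mg/l kinetin. The labels leave the 0.2 mg/l open as the amount for a single auxin or for their sum, and do not say how many callus pieces were pooled, nor which cell types formed.

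The values are probe set intensities on a linear scale, 1 per probe set and array, and without replicates no difference below has an error or a test. Intensities were floored at 24.7, which is the median of the 6 arrays' 40th percentiles, and values at or below it have no order. Where 1 of 2 arrays is at the floor the ratio is a bound, written as at least or at most, and a pair with both arrays there has no ratio. A gene is called where 2 arrays differ at least 2-fold, and the share of all 22746 non-control probe sets called in the same comparison is given beside each count. With this floor a call needs an intensity of at least 49.4 on the higher of the 2 arrays, which IRX10 reached on all 6 arrays, IRX15L on 1, in high medium at day 2, and IRX15 on none. A call was therefore possible in 10 of 10 comparisons for IRX10, in 2 for IRX15L and in 0 for IRX15. The arrays had trimmed means of 98.8 to 99.3 and 59.3% to 61.1% of probe sets above the floor. Average scan background was 105.48 on the low medium array of day 5 and 69.04 to 82.04 on the other 5. None of the 7 listed xylem markers, which include the secondary wall cellulose synthases, has a probe set in the annotation that was used, so the formation of xylem cells could not be checked. CLV3 of the shoot meristem, ACR4 and EXPA7 of epidermis and root hairs, and LBD29 were at or below the floor on all 6. Other measured markers did vary. LBD16, which acts in root-type callus, read 136.5 in callus, 89.8, 95.3 and 153.9 in the high medium cultures of days 2, 5 and 9, and 170.2 and 161.3 in the low medium cultures of days 5 and 9. OPS, the 1 measured phloem marker of 3 listed, had 40.4 in callus, 66.0, 56.0 and 43.3 for those same days of high medium, and 21.6 and 42.6 for those of low medium. LHCB4.1, the 1 measured leaf mesophyll marker of 4 listed, read 65.2 in high against 30.9 in low medium at day 9 and 50.0 to 57.2 on the other 4 arrays. LBD16 was thus lowest and OPS highest in high medium at day 2.

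IRX10, IRX15 and IRX15L all had their highest reading in high medium at day 2, above callus and above every later culture in either medium. In that array IRX10 read 1.47-fold, IRX15 1.27-fold and IRX15L 1.70-fold its callus level. From day 5 on, each of them read below callus in both media, except that IRX10 in high medium at day 5 lay so close to callus that its direction depended on the scaling of the arrays. IRX10 and IRX15L, where a ratio could be formed, read higher in high than in low medium at both shared days. Of the 25 ratios that could be formed for the 3 genes, 9 of them bounds, 1 reached 2-fold where 12 could have. It was the lower reading of IRX15L at day 5 than at day 2 in high medium, a log2 ratio of -1.04. In that comparison 0.550% of all probe sets were called lower, and 0.141% to 2.40% were called per comparison and direction. With a pseudocount of 16 in place of the floor this ratio was -0.76, under 2-fold. RNA was taken from whole cultures, so fewer cells of a type and less RNA per cell cannot be told apart.

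IRX10 encodes a glycosyltransferase of family GT47 that elongates the xylan backbone. Callus had an intensity of 95.2, the high medium cultures of days 2, 5 and 9 had 139.7, 94.0 and 89.9, and the low medium cultures of days 5 and 9 had 80.6 and 64.4. It lay above the floor on all 6 arrays. The day 2 value stood alone at the top, callus and the later high medium arrays lay close together, and the low medium arrays were at the bottom. The highest array was 2.17-fold above the lowest, low medium at day 9.

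IRX15L and its paralogue IRX15 encode Golgi proteins of the DUF579 family. They are needed together for a normal xylan content of secondary walls, and their biochemical activity is less well established than that of IRX10. IRX15L had an intensity of 36.3 in callus, of 61.8, 30.0 and 25.9 in the high medium cultures of days 2, 5 and 9, and of 23.1 and 10.2 in the low medium cultures of days 5 and 9. Both low medium values lie below the floor, so IRX15L stood above it in callus and in high medium only. This split depends on the floor. The readings of 25.9 in high medium at day 9 and 23.1 in low medium at day 5 lie close to 24.7 on either side. All 6 arrays lie above a floor of 7.7, the 20th percentile. Its day 2 array was at least 2.50-fold above the lowest array.

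IRX15 was above the floor on 2 of 6 arrays. Callus gave 31.5 and the day 2 culture in high medium 39.9. The later high medium cultures, of days 5 and 9, gave 18.4 and 20.6, and low medium gave 3.4 and 8.6 at the same ages. These last 4 values are all below the floor and have no order among themselves. The day 2 array was at least 1.62-fold above the lowest.

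**Figure D1:**
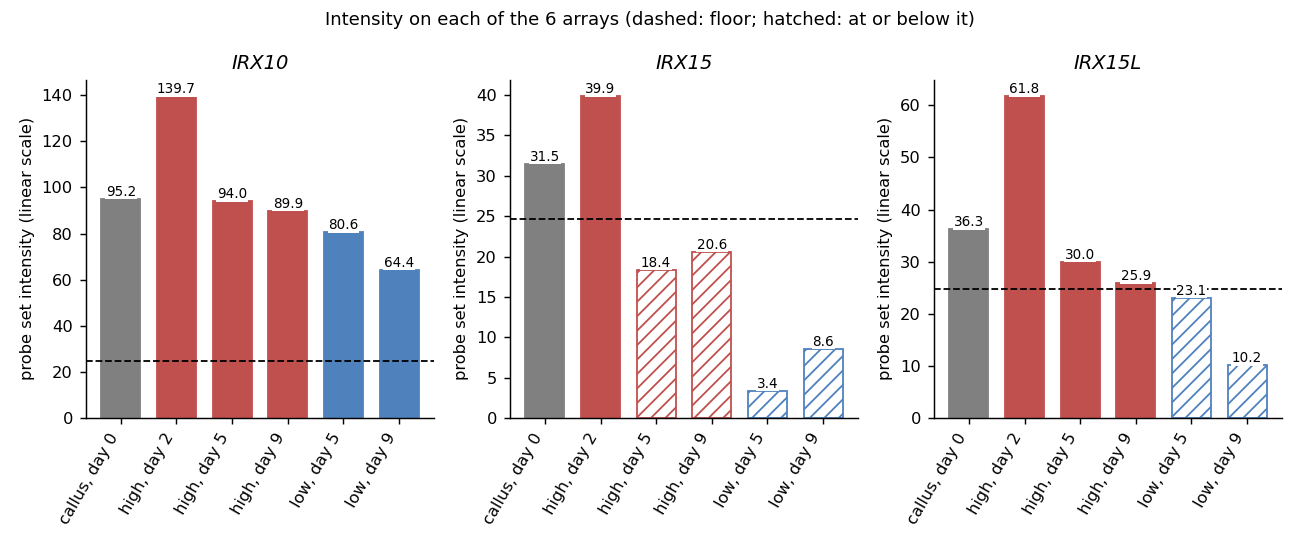
Probe set intensity (linear scale) of IRX10, IRX15 and IRX15L on each of the 6 arrays, 1 bar per array, grey for callus, red for high medium and blue for low medium, each panel on its own scale. The dashed line is the floor at 24.7 and hatched bars lie at or below it. All 3 genes are highest in high medium at day 2, and IRX15 is above the floor only there and in callus.

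The levels of IRX10 and IRX15L ranked in the same order over the 4 arrays on which both were above the floor, which was high medium day 2, callus, high medium day 5 and high medium day 9. The 2nd and 3rd places were not separated for IRX10, at 95.2 in callus and 94.0 in high medium at day 5. With no replicates, which neighbours in this order differ beyond their spread is not known. As background, 15.8% of the 15235 probe sets above the floor on any array were highest in high medium at day 2. Of the 12904 above the floor both there and in callus, 4.84% had day 2 highest and callus next, as the 3 genes had. The same order of 4 arrays was held by 3.65% of the 12388 probe sets above the floor on all of them. The genes were chosen with earlier results of these data known, so these shares are descriptions and not a test. The 3 genes share the single day 2 array, so their joint peak is 1 observation of that culture and not 3.

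The comparison of high medium with callus asked how far the levels in these cultures lay from the starting point. Low medium was not sampled at day 2, and callus was not in liquid. The part of the differentiating medium therefore cannot be told apart from that of liquid culture, shaking and time. At day 2, IRX10 read 139.7 in high medium against 95.2 in callus, a log2 ratio of 0.55, and 8.63% of the 14245 probe sets with a ratio lay as high or higher. IRX15L read 61.8 against 36.3, a log2 ratio of 0.77, matched or passed by 4.46%. IRX15 read 39.9 against 31.5, a log2 ratio of 0.34, matched or passed by 17.3%. Neither IRX10 nor IRX15L was called, and IRX15 was too low to be, where the share of all probe sets at least 2-fold higher was 1.60%. By a 1.5-fold rule IRX15L was 1 of 3 called, against 4.81% of all probe sets. The median probe set with a ratio differed by 0.27 in size between these arrays. The 75th percentile of the log2 ratios was 0.22 and the 95th was 0.72. IRX15 and IRX10 lay between these, and IRX15L lay above both. Among the measured cell type markers, the log2 ratio to callus at day 2 was 0.71 for OPS, -0.60 for LBD16 and 0.03 for LHCB4.1. The part of any of them in these values was not tested.

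At day 5 in high medium IRX10 was level with callus, at 94.0 against 95.2. Its log2 ratio was -0.02, and it turned to 0.07 with array medians made equal and to 0.05 after quantile normalization. IRX15L read 30.0 against 36.3, a log2 ratio of -0.28, and 30.2% of probe sets lay as low or lower. IRX15 at 18.4 was below the floor, a log2 ratio of at most -0.35. At day 9 the log2 ratio to callus was -0.08 for IRX10 and -0.49 for IRX15L, the second of these reached by 14.4% of probe sets, while that of IRX15 was again at most -0.35. IRX10 was not called lower at either day, where 2.40% of all probe sets were at day 5 and 1.71% at day 9. IRX15 and IRX15L lie too near the floor in callus for a lower call, so its absence there says nothing of them.

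Within high medium all 3 genes read lower at day 5 than at day 2, a step that does not use the callus array. IRX15L read 30.0 at day 5 against 61.8 at day 2, a log2 ratio of -1.04. Of the 14323 probe sets with a ratio, 0.754% matched or passed this. That share is over probe sets of all intensities and was not matched to the low level of IRX15L. IRX15L was 1 of 3 called lower, beside 0.550% of all probe sets. By a 1.5-fold rule IRX15L and IRX15 were 2 of 3 called, against 3.30% of all probe sets, and IRX10 lay just under it at 1.49-fold. With a pseudocount of 16 in place of the floor the IRX15L log2 ratio was -0.76, which is not 2-fold. IRX10 read 94.0 against 139.7, a log2 ratio of -0.57 reached by 5.63%. IRX15 read 18.4 against 39.9, a log2 ratio of at most -0.69 that 3.37% reached. The median probe set differed by 0.21 in size in this step, less than each of the 3 genes.

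From day 5 to day 9 in high medium little further change was seen. IRX10 read 89.9 at day 9 against 94.0 at day 5, a log2 ratio of -0.06. IRX15L read 25.9 against 30.0, a log2 ratio of -0.21 where the median size over all probe sets was 0.17. IRX15 was at the floor on both arrays. IRX10, the one gene high enough for a call here, was not called lower, against 0.453% of all probe sets.

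**Figure D2:**
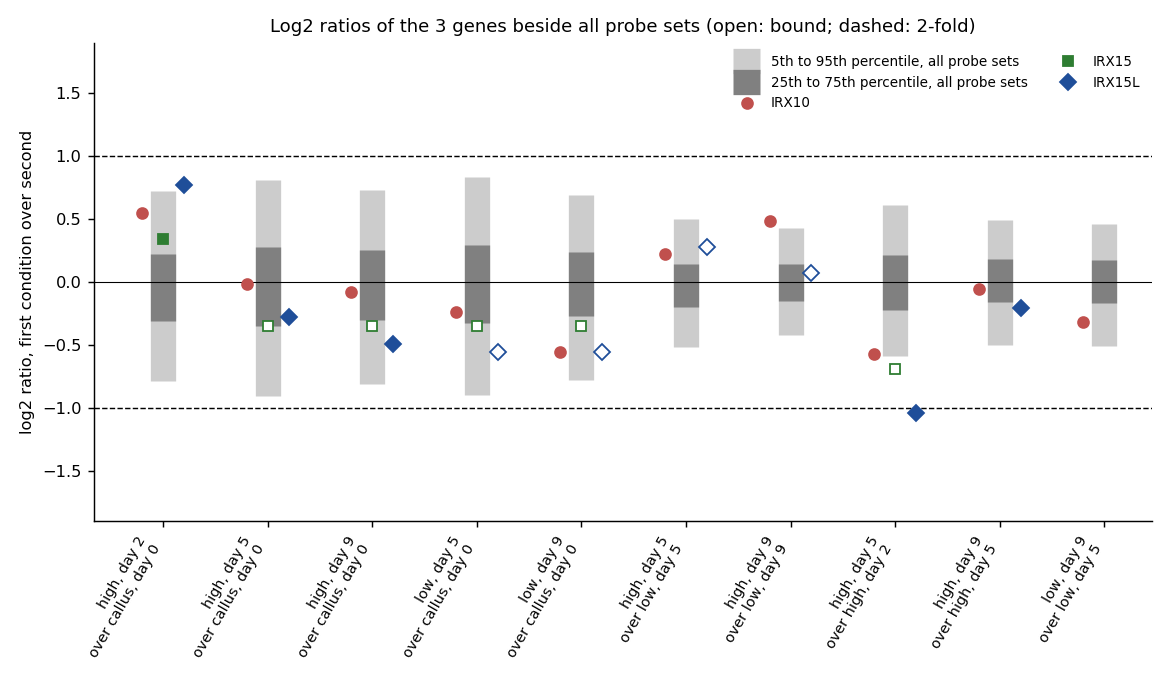
Log2 ratio (vertical axis) of IRX10, IRX15 and IRX15L in the 10 comparisons (horizontal axis), with the 25th to 75th and 5th to 95th percentiles of all probe sets with a ratio as dark and light grey bars. Open symbols are bounds, a missing symbol means that both arrays were at the floor, and dashed lines mark 2-fold. IRX15L at -1.04 between days 5 and 2 in high medium is the one point past 2-fold.

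The media were compared at days 5 and 9, which asks whether the genes differ between the high and the low differentiating culture at the same age. At day 5 IRX10 read 94.0 in high medium against 80.6 in low medium, a log2 ratio of 0.22 reached by 17.0% of the 14468 probe sets with a ratio. At day 9 it read 89.9 against 64.4, a log2 ratio of 0.48. Of 14077 probe sets, 3.74% lay as high or higher at day 9, when the median size was 0.14. Under the 5 other settings its log2 ratio at day 9 ran from 0.40 to 0.50.

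At day 5 IRX15L read 30.0 in high medium against 23.1 in low medium, higher by at least 0.28 on the log2 scale. At day 9 it read 25.9 against 10.2, higher by at least 0.07. The day 9 bound is set by the floor, just under the high medium value, and at a floor of 7.7, the 20th percentile, the log2 ratio was 1.34. IRX15 had no ratio between media at either day, since all 4 arrays were at the floor. As deposited, the day 5 readings were 18.4 in high and 3.4 in low medium, and those of day 9 were 20.6 and 8.6. IRX10 was not called at either day, where the share of all probe sets called higher was 0.765% at day 5 and 0.264% at day 9, and the other 2 genes were too low in high medium to be. Being higher in high medium at both days by any size, as IRX10 and IRX15L were, held for 25.6% of the 13700 probe sets with both ratios. The low medium array of day 5 is the one with a scan background of 105.48, and the part of this in the day 5 differences was not tested. OPS was at least 1.18 higher on the log2 scale in high than in low medium at day 5, with a log2 ratio of 0.02 at day 9. LHCB4.1 was 1.08 higher at day 9, with a log2 ratio of -0.19 at day 5. LBD16 read lower in high medium at both days, with log2 ratios of -0.84 at day 5 and -0.07 at day 9. The part of any of these markers in the differences between media was not tested.

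IRX10 had its lowest readings in low medium. It read 80.6 at day 5 and 64.4 at day 9 against 95.2 in callus, log2 ratios of -0.24 and -0.56, and 31.4% and 9.83% of probe sets lay as low or lower at the 2 days. The log2 ratio to callus was at most -0.56 for IRX15L and at most -0.35 for IRX15 at both days. At day 9 in low medium IRX10 read 64.4 against 80.6 at day 5, a log2 ratio of -0.32 reached by 11.8% of probe sets, while IRX15 and IRX15L had no ratio in that step. IRX10 was not called lower against callus, where 2.40% of all probe sets were at day 5 and 1.57% at day 9. For IRX15 and IRX15L the floor again allowed no such call. Flooring at the 20th percentile put IRX15 at most at -2.03 on the log2 scale for day 5, still a bound. For day 9 it put IRX15 at -1.87 and IRX15L at -1.83. Nor was IRX10 called lower at day 9 than at day 5 of low medium, where 0.444% of all probe sets were at least 2-fold lower. The low medium array of day 5, with its scan background of 105.48, enters the day 5 ratios to callus and the step to day 9. The part of this background in these values was not tested. The 5 comparisons with callus share 1 callus array. The log2 ratios of IRX10 to it were 0.55, -0.02 and -0.08 for the high medium cultures of days 2, 5 and 9, and -0.24 and -0.56 for the low medium cultures of days 5 and 9.

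The other listed xylan genes gave a setting for these values, but 6 of 45 have a probe set in the annotation that was used. None of the 6 was called in any of the 10 comparisons, where 0.141% to 2.40% of all probe sets were called per comparison and direction, so a count of 0 in 6 lies near the background. TBL34, at 31.5 or less on every array, was too low for any call. TBL35 reached 49.4 in callus alone, and TBL32 in callus and in high medium at day 5, so part of this count is set by the floor. Against callus at day 2 in high medium, 3 of the 6 read higher and 3 lower, with a median log2 ratio of -0.05, beside -0.04 over all probe sets with a ratio. In the 4 later comparisons with callus, 5 of the 6 read lower and 1 was at the floor on both arrays. The medians for days 5 and 9 were -0.15 and -0.42 in high medium and -0.26 and -0.30 in low medium, beside -0.03 to -0.01 over all probe sets.

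GUT1 (AT5G61840), widely called IRX10L, is the close paralogue of IRX10 and acts in the same backbone synthesis in a broader range of tissues. It read 154.7 in callus, 165.8, 139.0 and 115.6 in the high medium cultures of days 2, 5 and 9, and 138.2 and 114.7 in the low medium cultures of days 5 and 9. Its level was above the floor throughout and lowest at day 9, in either medium alike. Where IRX10 had a log2 ratio of 0.55 against callus at day 2, GUT1 had 0.10. Between media, the log2 ratio of GUT1 was 0.01 at day 5 and 0.01 at day 9, against 0.22 and 0.48 for IRX10. At day 9 its log2 ratio to callus was -0.42 for high and -0.43 for low medium, where IRX10 had -0.08 and -0.56. Whether the paralogues differ beyond array noise was not tested.

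The xylan acetyltransferase genes TBL32, TBL34 and TBL35 did not move alike. TBL34 was above the floor on 1 array, the same high medium culture of day 2, where it read 31.5 against 15.9 in callus, higher by at least 0.35 on the log2 scale. TBL32 read 36.4 in high medium at day 2 against 59.2 in callus, a log2 ratio of -0.70, and TBL35 read 39.0 against 54.3, a log2 ratio of -0.48. The probe set of TBL32 is of the _s_at class, which can share sequence with other transcripts, so its value is uncertain. AT2G30460 and AT1G06890, from the list of UDP-xylose supply, stayed near callus, with log2 ratios of -0.16 to -0.10 and of -0.26 to 0.02 over the 5 liquid cultures.

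In the DUF579 family, to which IRX15 and IRX15L belong, 2 of the 5 other listed genes were measured, and neither read higher at day 2 in high medium than in callus. AT1G67330 read 106.8 in callus, 48.9, 1.8 and 3.9 in the high medium cultures of days 2, 5 and 9, and 2.4 and 2.6 in the low medium cultures of days 5 and 9. Its log2 ratio to callus was -1.13 at day 2, when IRX15 and IRX15L read higher, and at most -2.11 in the 4 later cultures. Like IRX15, it was above the floor in callus and at day 2 only. AT1G27930 read between 78.2 and 97.8 on all 6 arrays. Both read lower at day 5 than at day 2 in high medium, as IRX15 and IRX15L did, by a log2 ratio of at most -0.99 for AT1G67330 and of -0.19 for AT1G27930.

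Among 5 measured genes of 58 listed for other wall polymers and their regulators, the zinc finger gene C3H14, a regulator of secondary wall genes, was the one that also peaked at day 2 in high medium. It read 114.6 there against 29.5 in callus, a log2 ratio of 1.96, and 50.1 in high against 29.3 in low medium at day 5. At day 9 it read 36.5 in high and 26.8 in low medium. HCT, an enzyme of lignin synthesis, went the other way at day 2, at 254.1 in high medium against 670.0 in callus, a log2 ratio of -1.40. COB, which orients cellulose, and CSLC4, which makes the xyloglucan backbone, had log2 ratios of -0.27 and -0.23 at day 2. CSLA3, of the mannan synthase family, was at the floor on all 6 arrays.

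**Figure D3:**
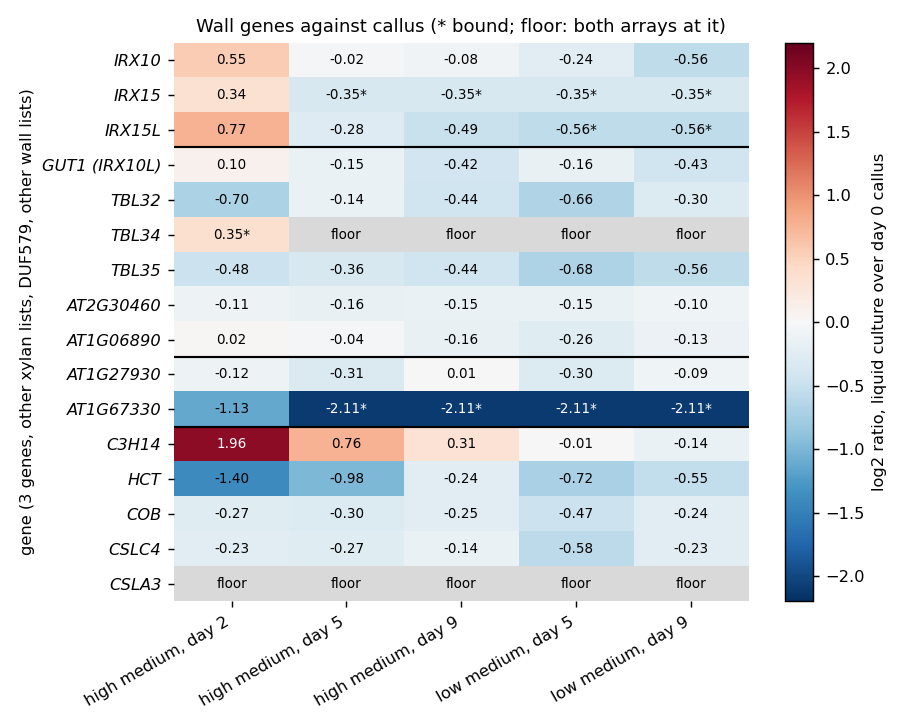
Log2 ratio of each of the 5 liquid cultures (columns) over day 0 callus for the 3 genes, the 6 other xylan genes, 2 other DUF579 genes and 5 other wall genes (rows, in that order between the lines). An asterisk marks a bound and grey cells had both arrays at the floor. The 3 genes, TBL34 and C3H14 are above 0.3 at day 2 in high medium, and AT1G67330 is the darkest blue row at -2.11 as a bound.

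Likeness in pattern was measured as the Pearson correlation of floored log2 values over the 6 arrays, among 3785 genes above the floor on all arrays with a log2 range of at least 0.5. The 6 points share their arrays, so the coefficients are descriptions only. The genes most like IRX10 were AT5G66440 (r = 0.987), AT1G47410 (0.977) and AT1G61670 (0.974). AT5G66440 read 85.6 in high medium at day 2 against 46.1 in callus, and 31.6 in low medium at day 9. Those most like IRX15L were AT1G64185 (0.986), AT3G57320 (0.982) and AT1G04040 (0.976), and all of these had smaller steps than IRX15L at day 2. Those most like IRX15 were AT2G01090 (0.987), AT1G64185 (0.977) and NDB1 (AT4G28220, 0.975), an NAD(P)H dehydrogenase gene. With 4 of its 6 values at the floor, the likeness of IRX15 rests on callus and day 2.

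The 3 genes were not the closest matches of each other. The correlation of IRX15 with IRX15L was 0.972, which would rank 5 among the candidates for IRX15 and 8 for IRX15L. Both genes were set to the floor on both low medium arrays, so part of this likeness was fixed by the floor. The candidates they were ranked among had no floored values. The correlation of IRX10 with IRX15L was 0.908, rank 34 for IRX10 and 55 for IRX15L. That of IRX10 with IRX15 was 0.837, rank 104 and 142. C3H14 correlated with IRX10 at 0.892 and with IRX15L at 0.863, and GUT1 with IRX10 at 0.793. When closeness was measured by root mean square distance, which also counts the size of the steps, TBL36 was nearest to IRX15L, at 848.3 in high medium at day 2 against 562.0 in callus and 355.7 in low medium at day 9. TBL36 belongs to the family of the acetyltransferases above, and it was named after its values were seen.

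**Figure D4:**
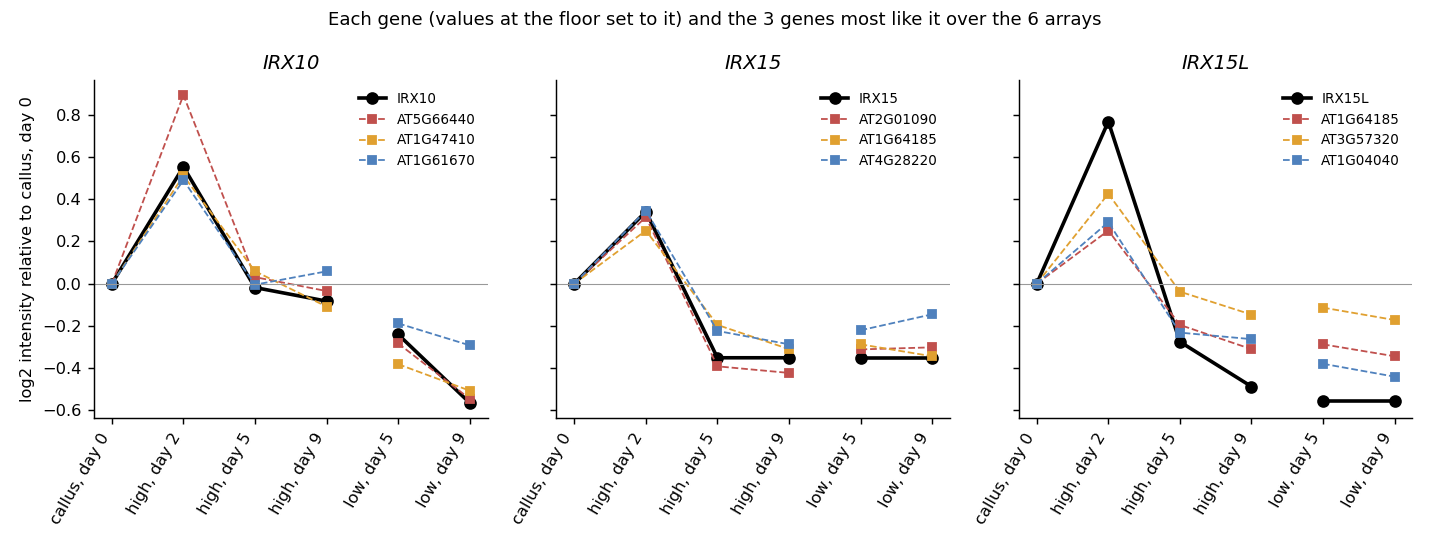
Log2 intensity relative to day 0 callus (vertical axis) over the 6 arrays (horizontal axis) for IRX10, IRX15 and IRX15L (black, values under the floor set to it) and the 3 genes most correlated with each (coloured dashes). Lines join callus with high medium and, apart from these, the low medium arrays. Every curve has its maximum in high medium at day 2, and those beside IRX15L rise less there than IRX15L does at 0.77.

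The genes next to the 3 loci on their chromosomes were looked at after the values of the 3 were known. Beside IRX10, AT1G27435 was also highest at day 2 in high medium with callus next, by a small step, at 325.2 against 305.2 in callus, a log2 ratio of 0.09. It read 275.9 and 235.7 in the high medium cultures of days 5 and 9, the same order as IRX10 over callus and high medium. In low medium AT1G27435 read 247.8 and 241.1 at days 5 and 9, both above its high medium value of day 9. IRX10, by contrast, was lowest in low medium. APT1, on the other side of IRX10, had no probe set of its own in the annotation that was used. The neighbours of IRX15 and IRX15L did not peak at day 2 in high medium. AT5G67220, which overlaps IRX15L in the RefSeq table, read 320.1 in high medium at day 2 against 378.0 in callus, and AT5G67200 on the other side read 53.7 against 70.7. Beside IRX15, AT3G50210 read 345.7 at day 2 against 295.0 in callus but was highest in low medium at day 9, at 386.0, while AT3G50230 was below the floor on all 6 arrays.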

How the data were processed

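RNA of 6 cultures, 1 for each of 6 conditions, was hybridised as biotin-labelled cRNA to 1-colour ATH1 arrays, per the labels' protocols. The authors deposited linear intensities for 22810 probe sets, and their summarising and scaling software was not given in the sources used here. Trimmed means (2% off each end, 64 control probe sets left out) agreed within the 5% limit, so the deposited scaling was kept. Values were floored at 24.7 and log2 ratios formed for 10 comparisons (Python 3.11.15, pandas 2.3.3). With 1 array per condition no test was made, and the number of arrays limits the precision.

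Probe sets were named from the platform annotation (13513 with 1 gene, 503 with several, 8730 unnamed here). Of the first, 13436 were found by gene ID in RefSeq's gene table (TAIR10.1), and the brightest probe set was kept per gene. No genome build is named for the probe sets, so no coordinates are given, and no promoter or protein sequence was used here. Named genes are the 3 loci, measured genes of the fixed lists, and the 3 genes most correlated with each locus, and exceptions are marked in the text. The loci and lists were chosen with earlier results of these data known. The alternatives were floors at the 20th and 60th percentiles, a pseudocount of 16, equal array medians, quantile normalization, a 1.5-fold rule and a distance in place of the correlation.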

Additional observations from a re-analysis of the deposited data

How the results depend on the processing

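No paired analysis was possible because each condition has 1 array, and for the same reason no array could be left out. Of the 25 log2 ratios of IRX10, IRX15 and IRX15L, all kept their side of 2-fold and moved less than 1.5-fold with array medians made equal, after quantile normalization and, for the 10 of IRX10 that still had a ratio, with a floor at the 60th percentile (65.1), where IRX15 and IRX15L had none. IRX10 in high medium at day 5 over callus changed sign, from -0.02 to 0.07 and 0.05 under those 2 scalings. The values that moved with the other settings all involve IRX15 or IRX15L at or near the floor. Flooring at the 20th percentile gave log2 ratios of IRX15 to callus in low medium of at most -2.03 at day 5, a bound, and of -1.87 at day 9. IRX15L to callus in low medium at day 9 was then -1.83. IRX15 at day 5 over day 2 in high medium was -1.12, and IRX15L in high over low medium at day 9 was 1.34. All of these were past 2-fold. With no floor and a pseudocount of 16, IRX15 over callus was -1.29 and -0.95 in low medium at days 5 and 9, IRX15L in high over low medium at day 9 was 0.68, and IRX15L at day 5 over day 2 in high medium was -0.76, under 2-fold. Lower floors count readings that the floor of 24.7 treats as unordered. Numbers of probe sets called per comparison and direction ran from 32 to 546 as reported, from 177 to 1115 at the 20th percentile floor, from 12 to 294 at the 60th, and from 272 to 1882 by the 1.5-fold rule. The lists of most like genes depended on the setting: a floor at the 20th percentile kept 1, 0 and 0 of the 3 genes for IRX10, IRX15 and IRX15L, and the distance measure kept 1, 3 and 0.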
